A study of Homo sapiens with 8 samples.

Results

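The 10 transcription regulators of myeloid leukaemia and blood cell differentiation followed here were MYC, MYB, CEBPA, SPI1, RUNX1, GFI1, IRF8, LMO2, ID2 and SOX4. They were found by matching symbols to Ensembl identifiers, and all 10 were present among the 63140 genes of the count table and passed the filter on low counts. The RNA came from chromatin isolation by RNA purification (ChIRP), in which biotinylated probes are hybridised to sonicated, glutaraldehyde-fixed lysate and the captured material is sequenced. The target of the probes is not stated and no input library is named, so each value is an amount of RNA in a pull-down and not a cellular level. The cells were human acute myeloid leukaemia (AML) cells, labelled as the established lines MOLM13 and OCI-AML4 and collected on day 3 after nucleofection with guide RNAs.

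The 4 groups differed in the editor and in the site it was sent to. AAVS1 KO and HOTSCRAMBL KO received Cas9 ribonucleoprotein, which cuts DNA. AAVS1 CBE and HOTSCRAMBL CBE received a cytosine base editor (CBE), which changes C to T without cutting both strands. AAVS1 is an editing control site within PPP1R12C, and HOTSCRAMBL is a long non-coding RNA. The 2 AAVS1 groups carry the genotype label WT, but they too were nucleofected with an editor and a guide. Each group held 1 library labelled MOLM13 and 1 labelled OCI-AML4, so the 2 replicates of a group differ in line label and n = 2 throughout. The line labels were not checked against libraries of known line, and the libraries differed little by them. Between the labels 0.495% of all 24057 genes tested passed (edgeR adjusted p under 0.05), where 8.76% passed with HOTSCRAMBL knockout and 8.83% with base editing, and the deviations of libraries with the same label from their group means correlated across genes with r of at most 0.0411, or 0.123 among genes above the median level. These values do not by themselves set 2 different lines apart, so the line is given below only as a label. Nothing in the labels says that edited cells were sorted or cloned, and the share of edited alleles is not analysed here. Where a pair of values is given below, the MOLM13 label comes first and the OCI-AML4 label second.

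Several facts of the libraries touch every result. Total counts ran from 20548300 to 37970163. No gene in the table is named HOTSCRAMBL, so the targeted RNA could not be used to check the labels. PPP1R12C stood between 365 and 387 CPM (counts scaled to library size after TMM) in the 4 AAVS1 libraries, at 235 and 242 with HOTSCRAMBL KO and at 168 and 135 with HOTSCRAMBL CBE. Mitochondrially encoded RNA took 6.77% to 7.23% of counts in the AAVS1 libraries and 10.2% to 11.9% in the HOTSCRAMBL libraries. Ribosomal protein mRNA took 1.32% to 1.59% with AAVS1, 3.98% to 4.46% with HOTSCRAMBL KO and 3.20% to 3.38% with HOTSCRAMBL CBE. These shares moved with the target in all 8 libraries, and their part in the results below was not tested. The 7 myeloid markers summed to between 909 and 1468 CPM. Among markers of other cells, CD3E, CD2, HBB and PF4 were at 0 in all 8 libraries. The T cell list summed to 4.71 and 1.93 CPM in HOTSCRAMBL CBE and to between 9.999 and 13.4 elsewhere. That sum was mostly CD5 (1.93 to 13.3 CPM), with CD3D at most 2.35 and CD3G at most 0.134 CPM. The B cell list summed to between 6.35 and 11.4 CPM, the erythroid list to at most 1.66 and the megakaryocyte list to at most 4.11. The stromal and epithelial list summed to at most 1.19 CPM.

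The 10 genes act in one network. SPI1 (PU.1) and CEBPA open and drive the granulocyte and monocyte programme, IRF8 turns progenitors towards monocytes and dendritic cells, and RUNX1 with its partner CBFB is needed for the emergence of definitive blood cells. MYB and MYC keep leukaemic blasts growing, LMO2 is a bridging protein of stem and erythroid complexes, and SOX4 is an HMG box factor linked to blast self-renewal. GFI1 is a zinc finger repressor required for neutrophils, and ID2 is a helix-loop-helix protein without a basic region that holds E proteins off DNA.

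Promoter sequences are shown for members that passed the test in the knockout comparison and whose windows held at least 1 match to a searched motif, so that the reader can see what stands before their start sites. RefSeq windows (GRCh38.p14) were at hand for 7 of the 10 members, namely MYB, CEBPA, RUNX1, GFI1, IRF8, ID2 and SOX4. Each line gives the 250 bases before a start site, 5′ to 3′ on the gene's strand, with matches in capitals.
CEBPA, chr19:33302535-33302784, minus strand: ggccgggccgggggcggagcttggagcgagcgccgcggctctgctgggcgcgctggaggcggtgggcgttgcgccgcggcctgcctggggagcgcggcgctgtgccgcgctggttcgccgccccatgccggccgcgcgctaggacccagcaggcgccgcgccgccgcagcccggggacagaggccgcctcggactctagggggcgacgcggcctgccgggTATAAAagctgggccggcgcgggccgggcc
ID2, chr2:8681806-8682055, plus strand: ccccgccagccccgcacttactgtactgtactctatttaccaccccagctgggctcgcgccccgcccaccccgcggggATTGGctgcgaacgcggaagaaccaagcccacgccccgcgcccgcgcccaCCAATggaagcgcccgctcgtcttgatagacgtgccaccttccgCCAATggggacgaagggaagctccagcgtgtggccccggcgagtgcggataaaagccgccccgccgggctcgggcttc
IRF8, chr16:85902580-85902829, plus strand: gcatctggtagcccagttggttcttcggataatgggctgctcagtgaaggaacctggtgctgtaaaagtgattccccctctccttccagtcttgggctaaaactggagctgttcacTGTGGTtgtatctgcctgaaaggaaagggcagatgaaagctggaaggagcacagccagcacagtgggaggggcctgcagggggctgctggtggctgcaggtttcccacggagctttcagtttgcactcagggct
RUNX1, chr21:34888700-34888949, minus strand: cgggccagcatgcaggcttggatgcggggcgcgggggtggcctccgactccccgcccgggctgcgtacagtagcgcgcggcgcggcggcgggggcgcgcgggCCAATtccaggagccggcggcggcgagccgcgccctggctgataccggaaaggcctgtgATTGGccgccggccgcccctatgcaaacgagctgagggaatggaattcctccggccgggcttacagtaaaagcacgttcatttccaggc
GFI1, chr1:92486100-92486349, minus strand: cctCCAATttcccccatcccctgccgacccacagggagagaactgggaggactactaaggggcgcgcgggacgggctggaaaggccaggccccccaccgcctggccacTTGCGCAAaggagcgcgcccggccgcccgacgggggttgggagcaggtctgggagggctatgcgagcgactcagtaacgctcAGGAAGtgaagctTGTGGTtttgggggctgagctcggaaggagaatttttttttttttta
The GFI1 line is the second of 3 windows of that gene, and the IRF8 line the first of 2. Of the printed windows, only that of CEBPA ends where the gene starts in the annotation of the count table. Those of ID2, IRF8, RUNX1 and GFI1 lie inside the annotated gene, before internal start sites. For ID2, IRF8 and RUNX1 no window stood at the outermost annotated start, so matches or their absence describe these internal sites only. The motifs searched, on both strands and over 300 bases (250 before and 50 after the start), were CACGTG (the E-box), AGGAAG (for ETS factors and SPI1), TGTGGT (for RUNX factors), TTGCNNAA (for CEBP factors), AACNGTT (for MYB), TGATTNAT (for HOX with PBX), TGACAG (for MEIS) and AGATAA (for GATA factors). The TATA box, searched as TATAAA, and the CCAAT box were added after the sequences had been seen. The CEBPA promoter held TATAAA at −30, which 11.5% of all 35116 promoter windows have. ID2 held CCAAT or its complement at −172, −122 and −78, RUNX1 at −148 and −89, and 34.6% of all windows hold at least 1. The GFI1 window held AGGAAG at −60, TGTGGT at −47, TTGCNNAA at −142 and CCAAT at −247, while the other 2 GFI1 windows held none. The IRF8 window held TGTGGT at −134. Over all windows the shares were 33.6% for AGGAAG, 13.1% for TGTGGT and 10.5% for TTGCNNAA. SOX4, whose window is not printed, held AGGAAG at −81 and 4 CCAAT matches. The MYB window held none of the motifs. The E-box, MYB, HOX and PBX, MEIS and GATA motifs, found in 7.26%, 3.51%, 2.82%, 15.8% and 10.3% of windows, had no match in any member's window. Only the letters were matched, and no binding was measured.

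Between genes, levels can be compared only per length. On the scale of CPM per kb of exon, the mean over 8 libraries was 173 for MYB, 89.2 for MYC, 72.5 for IRF8, 70.7 for CEBPA, 65.9 for SPI1, 53.2 for GFI1, 42.9 for LMO2, 36.7 for RUNX1, 24.4 for SOX4 and 13.0 for ID2. Of the tested genes, 86.8% lay at or below the ID2 mean and 99.4% at or below the MYB mean on this scale. MYB, between 144 and 196 CPM per kb, overlapped with no other member. The next 5 in the order, from MYC to GFI1, overlapped in their ranges: in the 4 AAVS1 libraries MYC lay between 54.5 and 72.1, IRF8 between 58.6 and 67.7, SPI1 between 62.1 and 71.2, GFI1 between 56.6 and 63.5 and CEBPA between 49.2 and 53.8, so that CEBPA stood below the other 4. There CEBPA overlapped with LMO2 (49.4 to 53.1), and RUNX1 (36.5 to 47.2) stood below both. SOX4 (21.3 to 25.9) and ID2 (6.55 to 10.8) were the lowest there and did not overlap. In HOTSCRAMBL KO the order of these last 2 turned, with ID2 at 28.1 and 29.8 and SOX4 at 18.3 and 19.7 CPM per kb. Reads that touched exons of 2 genes were not counted, and 43.9% of CEBPA and 46.6% of SPI1 exon bases lie under another annotated gene, so the levels per kb of these 2 genes are uncertain.

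**Figure D1:**
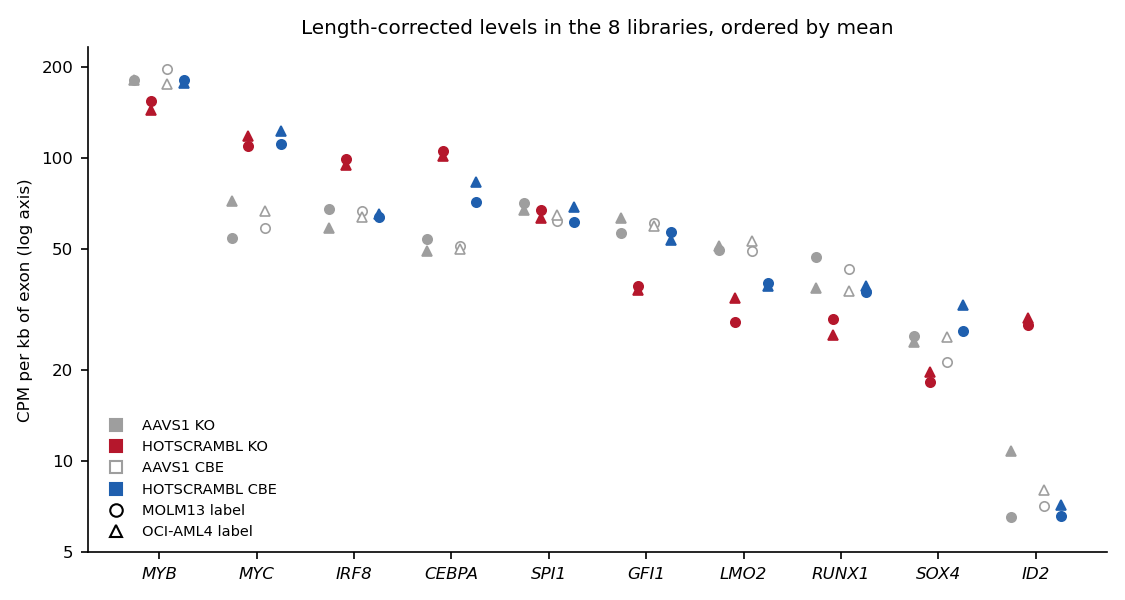
Level of the 10 genes in CPM per kb of exon (log axis), genes ordered by the mean of all 8 libraries; each point is 1 library, coloured by group, with circles for the MOLM13 label and triangles for the OCI-AML4 label. MYB stands highest in every library, and ID2 moves from between 6.55 and 10.8 in the AAVS1 libraries to 28.1 and 29.8 in HOTSCRAMBL KO.

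The knockout comparison asked how Cas9 targeting of HOTSCRAMBL changed the recovered RNA. Of the 10 genes, 8 passed the test (edgeR quasi-likelihood, Benjamini-Hochberg adjusted p under 0.05 over 24057 genes), where 8.76% of all genes tested did. The members were chosen with earlier results of these data known. Their mean levels per kb stood at or above those of 86.8% (ID2) to 99.4% (MYB) of tested genes. The share called among genes of such levels was not computed, so the 2 shares are not like for like. MYC, CEBPA, IRF8 and ID2 rose, against 4.51% of all genes, and MYB, RUNX1, GFI1 and LMO2 fell, against 4.25%. SPI1 and SOX4 did not pass. The median log2 fold change of the 10 was −0.18 and that of all genes tested −0.01. In base editing 2 of the 10 passed, MYC and CEBPA, both upward and none downward, where 8.83% of all genes passed, 4.56% upward and 4.27% downward; the medians were −0.04 and −0.02. No member passed between the 2 AAVS1 groups, where 0 of all 24057 genes tested passed. At an unadjusted p under 0.05 in edgeR there were 0 of the 10 and 918 of all genes, and DESeq2 and limma-voom called 0 of the 10. The log2 differences of the 10 lay between −0.05 and 0.19. A lower or higher value in these bulk libraries cannot separate fewer cells of a type from less RNA per cell.

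**Figure D2:**
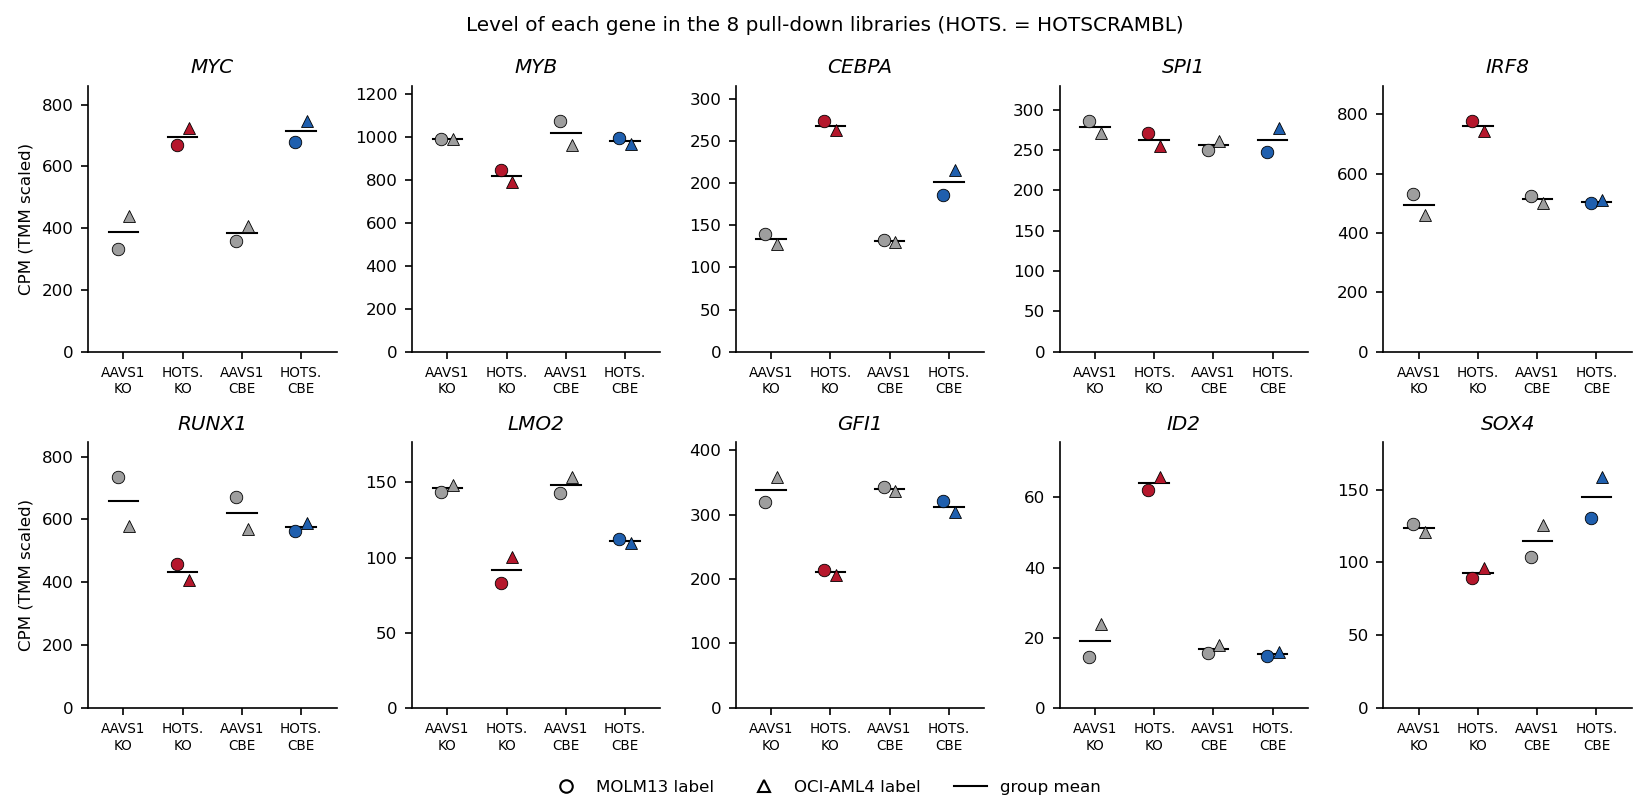
Level of each gene in CPM after TMM scaling; each point is 1 library (circle, MOLM13 label; triangle, OCI-AML4 label) and each bar the mean of the 2 libraries of a group, on axes that start at 0. MYC and CEBPA stand above their controls in both HOTSCRAMBL groups, whereas ID2 and IRF8 stand apart in HOTSCRAMBL KO.

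MYC (ENSG00000136997, GRCh38, chromosome 8, 127735434 to 127742951, plus strand), the partner of MAX in activating growth and ribosome genes, rose with both editors to about the same level. The AAVS1 KO libraries held 333 and 441 CPM against 670 and 724 for HOTSCRAMBL KO, and the AAVS1 CBE libraries 358 and 408 against 679 and 748 for HOTSCRAMBL CBE. All 4 HOTSCRAMBL libraries lay above all 4 AAVS1 libraries. Within each editor, groups lay apart for 44.8% of all genes tested with knockout and 46.4% with base editing. The group means were 387 ± 76.1 and 697 ± 38.5 CPM (SD, n = 2) in the knockout comparison, which is 0.86 on the log2 scale (SE 0.0998, edgeR adjusted p 7.0e-07). In base editing they were 383 ± 35.1 and 714 ± 49.0 CPM, which is 0.90 on the log2 scale (SE 0.0976, edgeR adjusted p 2.85e-07). The 2 effects differed by −0.04 (SE 0.139, edgeR adjusted p 0.943), a difference that turned to 0.10 without AAVS1 KO replicate 2 and to 0.01 without HOTSCRAMBL KO replicate 2. MYC kept both calls under all 18 alternatives. CASC11, which shares 194 exon bases with MYC, had at most 6 counts in a library.

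MYB (ENSG00000118513, chromosome 6, 135181308 to 135219173, plus strand), a factor on which many AML blasts depend, had the smallest of the 8 changes in HOTSCRAMBL KO. Its values were 989 and 990 CPM in AAVS1 KO and 845 and 789 in HOTSCRAMBL KO. These groups did not overlap, which held for 44.8% of all genes tested. The AAVS1 CBE libraries had 1076 and 962, which overlapped with 995 and 969 for HOTSCRAMBL CBE. The log2 fold change was −0.28 (SE 0.0856, edgeR adjusted p 0.0409) with knockout and −0.05 (SE 0.0839, edgeR adjusted p 0.79) with base editing. The knockout call was lost in 11 of 18 alternatives, among them the fit without the replicate block (edgeR adjusted p 0.176), DESeq2 size factors (0.0721) and each of the 6 fits that left out an AAVS1 library or a HOTSCRAMBL KO library (0.0822 to 0.419). MYB-AS1, with 103 shared exon bases, had between 6.42 and 23.5 CPM.

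CEBPA (ENSG00000245848, chromosome 19, 33299934 to 33302534, minus strand) is a single-exon gene for the factor that commits progenitors to the granulocyte lineage. It stood at 140 and 128 CPM with AAVS1 KO and at 275 and 263 with HOTSCRAMBL KO. The base editing controls had 133 and 130, and HOTSCRAMBL CBE had 186 and 216. As for MYC, the 4 HOTSCRAMBL libraries lay above the 4 controls. Lack of overlap held for 44.8% of all genes tested with knockout and 46.4% with base editing. On the log2 scale the fold change was 1.00 (SE 0.131, edgeR adjusted p 4.62e-06) with knockout and 0.61 (SE 0.128, edgeR adjusted p 0.00212) with base editing. The difference of 0.40 between the editors did not pass (SE 0.184, edgeR adjusted p 0.321). The call in base editing was lost without AAVS1 CBE replicate 1 (edgeR adjusted p 0.0707), without AAVS1 CBE replicate 2 (0.0845), without HOTSCRAMBL CBE replicate 2 (0.115) and in a fit of only those 4 libraries (0.0673). The 2 antisense genes that share 1141 of its exon bases were at 0 counts in all 8 libraries. Reads over the shared bases were counted for neither gene, so these zeros do not show whether antisense RNA was recovered there.

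SPI1 (ENSG00000066336, chromosome 11, 47354860 to 47409369, minus strand), the ETS factor at the head of the myeloid programme, passed in no comparison. Its values were 286 and 271 CPM for AAVS1 KO against 271 and 254 for HOTSCRAMBL KO, and 250 and 261 for AAVS1 CBE against 247 and 278 for HOTSCRAMBL CBE. The highest library was 1.16 times the lowest, the narrowest range of the 10 genes. Its log2 fold change was −0.09 (SE 0.116, edgeR adjusted p 0.735) with knockout and 0.04 (SE 0.112, edgeR adjusted p 0.901) with base editing, where it turned to −0.10 without TMM scaling. The groups of the knockout comparison lay apart, as did 44.8% of all genes tested. SLC39A13-AS1, which shares 1875 exon bases with SPI1, had between 15.4 and 32.4 CPM.

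IRF8 (ENSG00000140968, chromosome 16, 85899116 to 85922606, plus strand), an interferon regulatory factor of monocyte and dendritic cell fate, rose in HOTSCRAMBL KO. It went from 531 and 460 CPM (AAVS1 KO) to 779 and 744 (HOTSCRAMBL KO), and had 526 and 501 with AAVS1 CBE beside 500 and 511 with HOTSCRAMBL CBE. The 2 knockout libraries lay above the other 6, which spanned 460 to 531. HOTSCRAMBL KO and AAVS1 KO did not overlap for 44.8% of all genes tested. The log2 fold change was 0.62 (SE 0.0954, edgeR adjusted p 4.66e-05) with knockout and −0.02 (SE 0.0945, edgeR adjusted p 0.928) with base editing. The difference between the editors itself passed, at 0.64 (SE 0.134, edgeR adjusted p 0.0050). That call was lost in 6 of 17 alternatives, each of which left out 1 library (edgeR adjusted p 0.0568 to 0.125).

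RUNX1 (ENSG00000159216, chromosome 21, 34787801 to 36004667, minus strand), the DNA-binding subunit of core binding factor, fell in HOTSCRAMBL KO. The values went from 735 and 580 CPM (AAVS1 KO) to 457 and 407 (HOTSCRAMBL KO), and were 672 and 569 with AAVS1 CBE beside 563 and 588 with HOTSCRAMBL CBE. Among the control groups the MOLM13-labelled library was the higher one, and the base editing groups overlapped. Its log2 fold change was −0.60 (SE 0.103, edgeR adjusted p 2.08e-04) with knockout and −0.10 (SE 0.0997, edgeR adjusted p 0.623) with base editing. Without AAVS1 KO replicate 1, the library with the highest value, the knockout call was lost (log2 fold change −0.47, edgeR adjusted p 0.0897). Their difference of −0.50 did not pass (SE 0.143, edgeR adjusted p 0.0565) and passed in 6 of 17 alternatives. CBFB, its partner, went from 77.5 ± 3.68 to 45.4 ± 19.3 CPM with knockout (log2 fold change −0.75, SE 0.232, edgeR adjusted p 0.0419), a call lost in 9 of 18 alternatives.

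LMO2 (ENSG00000135363, chromosome 11, 33858576 to 33892076, minus strand), the LIM-only bridge of the TAL1 and GATA complexes, was lower in both HOTSCRAMBL groups but passed in only 1 of them. The AAVS1 KO libraries held 144 and 149 CPM against 83.0 and 100.1 for HOTSCRAMBL KO, and the AAVS1 CBE libraries 143 and 154 against 112.2 and 109.8 for HOTSCRAMBL CBE. No HOTSCRAMBL library reached a control library, and groups did not overlap for 44.8% of all genes tested with knockout and 46.4% with base editing. Fitted log2 fold changes were −0.67 (SE 0.152, edgeR adjusted p 0.00388) with knockout and −0.41 (SE 0.138, edgeR adjusted p 0.0626) with base editing, and the difference of −0.26 did not pass (SE 0.206, edgeR adjusted p 0.629). The average of both effects passed, at −0.54 (SE 0.103, edgeR adjusted p 4.09e-04). The knockout call was lost in 4 of 18 alternatives, namely in the fit of 4 libraries (edgeR adjusted p 0.0689), without either AAVS1 KO library (0.124 and 0.0773) and without HOTSCRAMBL KO replicate 1 (0.107). In base editing the call was gained with DESeq2 (adjusted p 0.00222) and without TMM scaling (edgeR adjusted p 0.00845).

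GFI1 (ENSG00000162676, chromosome 1, 92473043 to 92486925, minus strand), a repressor of monocytic genes in neutrophil precursors, fell in HOTSCRAMBL KO. It went from 319 and 359 CPM (AAVS1 KO) to 214 and 207 (HOTSCRAMBL KO), beside 343 and 337 with AAVS1 CBE and 321 and 303 with HOTSCRAMBL CBE. The knockout libraries lay below the other 6, which spanned 303 to 359. HOTSCRAMBL KO and AAVS1 KO did not overlap for 44.8% of all genes tested. The log2 fold change was −0.69 (SE 0.115, edgeR adjusted p 1.44e-04) with knockout and −0.12 (SE 0.107, edgeR adjusted p 0.585) with base editing. Between the editors it differed by −0.57 (SE 0.157, edgeR adjusted p 0.044), a call lost in 11 of 17 alternatives, including the fit without the replicate block (edgeR adjusted p 0.156) and each of the 8 fits that left out a library (0.108 to 0.397).

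ID2 (ENSG00000115738, chromosome 2, 8678845 to 8684461, plus strand) had the largest change of the 10 genes with knockout and the lowest mean level per kb over the 8 libraries. The AAVS1 KO libraries held 14.5 and 23.8 CPM against 62.2 and 65.8 for HOTSCRAMBL KO, while AAVS1 CBE had 15.7 and 17.8 and HOTSCRAMBL CBE 14.6 and 15.8. The 2 knockout libraries lay far above the other 6, and the base editing groups overlapped. HOTSCRAMBL KO and AAVS1 KO did not overlap for 44.8% of all genes tested. Its log2 fold change was 1.74 (SE 0.265, edgeR adjusted p 4.01e-05), a ratio of 3.35, with knockout and −0.13 (SE 0.324, edgeR adjusted p 0.874) with base editing. The effects differed by 1.87 (SE 0.423, edgeR adjusted p 0.0101), and this call was lost in 6 of 17 alternatives, each without 1 library (edgeR adjusted p 0.0882 to 0.144). The pair labelled MOLM13 gave a log2 ratio of 2.10 and the pair labelled OCI-AML4 1.47. ID2-AS1, with 145 shared exon bases, had at most 42 counts in a library.

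SOX4 (ENSG00000124766, chromosome 6, 21593751 to 21598619, plus strand) passed in neither editor, and its values went opposite ways. From 126 and 121 CPM with AAVS1 KO it was lower in both pairs, at 89.0 and 96.1 with HOTSCRAMBL KO. From 103 and 125 with AAVS1 CBE it was higher in both pairs, at 131 and 159 with HOTSCRAMBL CBE. Neither comparison overlapped, which held for 44.8% of all genes tested in knockout and 46.4% in base editing. The log2 fold change was −0.42 (SE 0.158, edgeR adjusted p 0.112) and 0.34 (SE 0.142, edgeR adjusted p 0.166). The difference between the editors passed narrowly, at −0.75 (SE 0.212, edgeR adjusted p 0.0485), and was lost in 12 of 17 alternatives, including the fit without the replicate block (edgeR adjusted p 0.131) and each of the 8 fits without 1 library (0.122 to 0.443). The knockout call was gained with DESeq2 (adjusted p 0.0192) and without TMM scaling (edgeR adjusted p 0.0165).

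**Figure D3:**
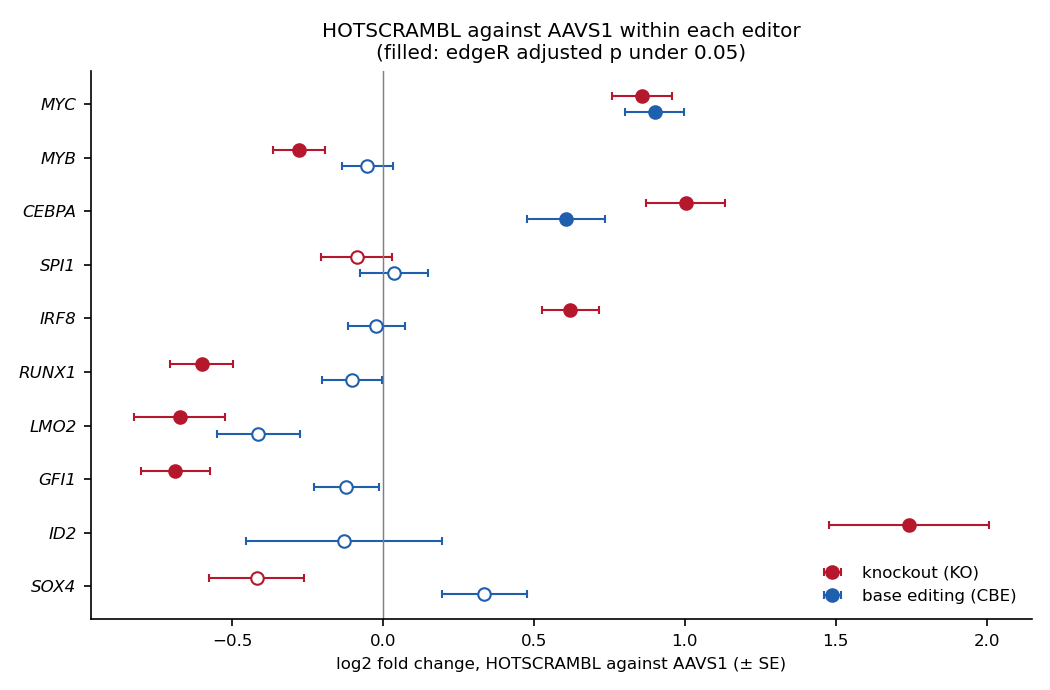
log2 fold change of HOTSCRAMBL against AAVS1 with knockout (red) and base editing (blue), with 1 SE on each side; filled points passed the edgeR adjusted p of 0.05. The plot has 8 filled red points and 2 filled blue ones, and SOX4 has its 2 open points on opposite sides of 0.

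The test of the difference between editors called 4 of the 10 genes, IRF8 and ID2 towards knockout and GFI1 and SOX4 towards base editing, where 3.19% of all genes passed, 1.74% towards knockout and 1.45% towards base editing. Leaving out 1 library lowered this to between 0 and 1, the fit without the replicate block, DESeq2 size factors and TMM without mitochondrial and ribosomal protein genes each gave 2, counts divided by 2 gave 3, and the fits without TMM, without the filter, with DESeq2, with limma-voom and with edgeR's legacy estimation each gave 5. In the knockout comparison the number of members called lay between 5 and 9 over the 18 alternatives, and in base editing between 1 and 3. MYC and CEBPA passed with both editors in the same direction, as did 3.07% of all genes. Averaged over the editors 7 of the 10 passed, 4 upward and 3 downward, where 12.3% of all genes did, 5.79% upward and 6.51% downward. Between the labelled lines none passed, where 0.495% of all genes did (2 at an unadjusted p under 0.05; DESeq2 called MYC, adjusted p 0.0365), with log2 differences from −0.23 for ID2 to 0.17 for RUNX1. Nor did the HOTSCRAMBL effect differ by line label for any of the 10, where 0 of all 24057 genes tested passed. At an unadjusted p under 0.05 in edgeR there were 0 of the 10 and 985 of all genes, and DESeq2 and limma-voom called 0 of the 10. These differences lay between −0.25 and 0.35 for the 10.

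Paralogues of the members were taken from a list of 21 genes, of which 14 were tested. With knockout 4 rose and 1 fell, where 4.51% of all genes rose and 4.25% fell. With base editing 3 rose and none fell, where 4.56% rose and 4.27% fell, and the medians were 0.02 and 0.18. RUNX3, the RUNX paralogue of lymphoid and myeloid cells, rose with both editors, from 43.4 ± 4.06 to 200.04 ± 94.9 CPM with knockout (log2 fold change 2.18, edgeR adjusted p 6.45e-08). In base editing RUNX3 went from 37.4 ± 4.70 to 116 ± 10.99 CPM (1.61, edgeR adjusted p 1.22e-05). ID1, the nearest relative of ID2, went from 5.96 and 2.32 CPM (AAVS1 KO) to 52.0 and 47.2 (HOTSCRAMBL KO), and from 5.10 and 0.919 (AAVS1 CBE) to 0.277 and 0.669 (HOTSCRAMBL CBE). Its rise with knockout was 3.59 on the log2 scale (SE 0.410, edgeR adjusted p 3.25e-07), and in base editing it did not pass (edgeR adjusted p 0.146). CEBPB and CEBPD, the family members of emergency granulopoiesis and monocytes, rose with knockout by log2 fold changes of 1.60 (edgeR adjusted p 2.16e-06) and 0.89 (edgeR adjusted p 1.88e-04), and SOX12 fell by 0.65 (edgeR adjusted p 0.00603). The SOX12 call was lost in 4 of 18 alternatives, with a log2 fold change of −0.41 (edgeR adjusted p 0.406) without AAVS1 KO replicate 1. MYBL2, the cell cycle MYB, rose in base editing (0.68, edgeR adjusted p 1.06e-05), as did CEBPG (0.57, edgeR adjusted p 0.0201). The CEBPG call was lost in 8 of 18 alternatives, with 0.37 (edgeR adjusted p 0.467) without AAVS1 CBE replicate 2. The editors' effects differed for ID1, CEBPB and CEBPD, higher towards knockout, and for MYBL2, lower, where 1.74% and 1.45% of all genes passed. These calls were lost in 2, 5, 3 and 1 of 17 alternatives.

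Of 37 other blood transcription factors 33 were tested. In knockout none rose and 8 fell, where 4.25% of all genes fell, with a median of −0.30 against −0.01 for all genes. The 4 with the smallest p were SATB1, a chromatin organiser (498 ± 49.9 to 320 ± 7.85 CPM, log2 fold change −0.63), KLF6 (91.1 ± 1.75 to 40.6 ± 6.25 CPM, −1.17), ETV6 (189 ± 6.06 to 109 ± 10.9 CPM, −0.81) and GATA2, a stem and progenitor cell factor (92.0 ± 12.7 to 44.4 ± 9.30 CPM, −1.06), with edgeR adjusted p between 7.35e-05 and 6.12e-04. Of the other calls, that of CBFB was lost in 9 of 18 alternatives, MEF2D in 7, MEF2C in 4 and ZBTB16 in 3. Without HOTSCRAMBL KO replicate 1 the log2 fold change was −0.33 for CBFB and −0.21 for MEF2D, neither of which passed, and −0.84 for MEF2C. Without HOTSCRAMBL KO replicate 2 it was −1.36 for CBFB, −0.57 for MEF2D and −0.27 for MEF2C, of which MEF2C did not pass. In base editing 2 rose, ELF1 (0.60) and MEF2D (0.36), and IRF5 fell by 0.77, where 4.56% of all genes rose and 4.27% fell. The median was −0.02, and the calls of ELF1, MEF2D and IRF5 were lost in 4, 9 and 3 of 18 alternatives. The difference between editors passed for 5 of the 33, where 3.19% of all genes passed. SATB1, MEF2D, KLF6 and MEF2C were lower towards knockout, and KLF4, a monocyte factor, was higher (1.74, SE 0.450, edgeR adjusted p 0.0298). KLF4 passed with neither editor alone (edgeR adjusted p 0.0781 and 0.120), and its difference was lost in 8 of 17 alternatives (highest adjusted p 0.306). The calls of the difference for SATB1, MEF2D, KLF6 and MEF2C were lost in 1, 5, 5 and 6 of 17. GATA1, TAL1, ERG and MECOM did not pass the filter on low counts.

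All 9 genes of the MYC network were tested. MXD1, an antagonist that competes with MYC for MAX, rose beside MYC with both editors, from 284 ± 7.53 to 464 ± 8.94 CPM with knockout (0.71 on the log2 scale, edgeR adjusted p 2.38e-05), and again from 273 ± 16.9 to 539 ± 8.02 CPM with base editing (0.98, edgeR adjusted p 1.04e-07). MNT, another MAX-binding repressor, fell with both, by 0.63 (edgeR adjusted p 0.0389) and 0.77 (edgeR adjusted p 0.00458), calls lost in 9 and 3 of 18 alternatives (highest adjusted p 0.340 and 0.375). MLXIP fell with base editing by 0.54 (edgeR adjusted p 0.00164), a call lost in 3 of 18 alternatives. The network's median was 0.06 in knockout and −0.26 in base editing.

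The 17 genes that MYC is known to activate did not follow its level evenly. In knockout 1 rose and 3 fell, where 4.51% of all genes rose and 4.25% fell, with a median of 0.07. The one that rose was FBL (log2 fold change 0.60, edgeR adjusted p 0.0413), a nucleolar methyltransferase, and the 3 that fell were NCL (−0.47), NOP56 (−0.55) and CAD (−0.69). The calls of NCL, NOP56 and CAD were lost in 1, 4 and 3 of 18 alternatives. The FBL call was lost in 10 of 18 alternatives. Its log2 fold change was 0.25 without HOTSCRAMBL KO replicate 2 (edgeR adjusted p 0.687) and 0.32 without AAVS1 KO replicate 2. In base editing 7 rose and 2 fell, where 4.56% of all genes rose and 4.27% fell, with a median of 0.54 against −0.02 for all genes. Among these 9 calls that of SRM was lost in 16 of 18 alternatives, BOP1 in 10, NOP56 in 8, NOP58 in 6, HSPD1 in 4, FBL and ODC1 in 2 each, LDHA in 1 and NPM1 in 0. NPM1, nucleophosmin, went from 258 ± 3.42 to 445 ± 15.4 CPM (0.78, SE 0.109, edgeR adjusted p 1.26e-05). LDHA, FBL and ODC1 rose by 1.00, 1.05 and 1.21, and NOP56 and BOP1 fell by 0.36 each. The difference between editors passed for NPM1 alone of the 17 (−0.67, SE 0.158, edgeR adjusted p 0.0154), where 3.19% of all genes passed. That call was lost in 8 of 17 alternatives, and the value lay between −0.78 and −0.53 when 1 library was left out. The higher shares of ribosomal protein and mitochondrial RNA in the HOTSCRAMBL libraries moved with these groups, and their part in these counts was not tested.

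Genes that SPI1 and CEBPA are known to drive in myeloid cells changed in both directions. Of 18 tested, 4 rose and 3 fell with knockout, with a median of 0.45, where 4.51% of all genes rose and 4.25% fell. With base editing 2 rose and 3 fell, with a median of −0.06, where 4.56% rose and 4.27% fell. LYZ, lysozyme, went from 130 ± 14.9 to 604 ± 139 CPM with knockout (log2 fold change 2.20, SE 0.125, edgeR adjusted p 9.41e-13). CYBB, a subunit of the phagocyte oxidase, went from 19.4 ± 1.24 to 67.3 ± 1.94 CPM (1.80, SE 0.274, edgeR adjusted p 4.36e-05), and CSF1R, the receptor of macrophage growth factor, rose by 0.69 (edgeR adjusted p 0.0227). The CSF1R call was lost in 7 of 18 alternatives, with 0.41 (edgeR adjusted p 0.505) without AAVS1 KO replicate 2. Among granule proteins of early granulocytes PRTN3 rose by 0.46 while AZU1 and ELANE fell by 0.89 and 0.57. In base editing CTSG went from 29.0 ± 0.556 to 103 ± 1.07 CPM (1.83, SE 0.192, edgeR adjusted p 1.43e-07), and NCF4, ITGAX and CSF3R fell by 0.75, 1.01 and 0.38. ITGAX thus fell with both editors, and the difference of 0.26 between them did not pass (SE 0.262, edgeR adjusted p 0.722). With knockout the calls of ITGAX, ELANE and PRTN3 were lost in 4, 4 and 2 of 18 alternatives. The CSF3R call was lost in 6 of 18 alternatives. The other gene that rose was CTSS (0.95), whose call was lost in 6 of 18 alternatives, with 0.53 (edgeR adjusted p 0.619) without HOTSCRAMBL CBE replicate 1. The difference between editors passed for 7 of the 18, where 3.19% of all genes passed, 1.74% higher towards knockout and 1.45% lower. LYZ (1.97), CYBB (2.31), CSF1R (1.22) and NCF4 (0.83) were higher towards knockout and AZU1, CTSG and ELANE lower. The calls of the difference for ELANE, CTSG, NCF4 and CSF1R were lost in 11, 8, 6 and 5 of 17 alternatives. LYZ is also 1 of the 7 myeloid markers, whose sum was 1353 and 1468 CPM in HOTSCRAMBL KO and between 909 and 1052 in the other 6 libraries. LYZ was the 1 of these markers that passed with knockout, and the median log2 fold change of the 7 was −0.08. MPO went from 50.5 ± 5.07 to 29.97 ± 3.07 CPM, ITGAM from 55.1 ± 5.23 to 30.3 ± 18.3, CD33 from 189 ± 11.03 to 152 ± 22.8 and LAIR1 from 591 ± 33.6 to 562 ± 54.5, lower means that did not pass (edgeR adjusted p 0.0696, 0.100, 0.165 and 0.749). TYROBP and CD14 had higher means that did not pass (edgeR adjusted p 0.380 and 0.249).

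Of 11 genes of stem and progenitor cells 7 were tested. In knockout none rose and 3 fell, where 4.25% of all genes fell, MEIS1 (242 ± 12.1 to 152 ± 11.4 CPM, log2 fold change −0.67, edgeR adjusted p 0.00141), BCL2 (760 ± 29.4 to 539 ± 6.80 CPM, −0.49, edgeR adjusted p 5.22e-04) and ANGPT1. ANGPT1 had 547 and 283 counts in AAVS1 KO and 0 and 2 in HOTSCRAMBL KO. Its fitted ratio therefore depends on the prior count and is not given. The knockout calls of MEIS1 and BCL2 were lost in 3 and 1 of 18 alternatives. In base editing MEIS1 rose, from 258 ± 7.89 to 398 ± 74.4 CPM (0.63, edgeR adjusted p 7.79e-04), and so did CDK6 (0.40, edgeR adjusted p 0.0207). These calls were lost in 3 and 8 of 18 alternatives, and MEIS1 was at 0.41 (edgeR adjusted p 0.214) without HOTSCRAMBL CBE replicate 1. The effects of the editors on MEIS1 differed by −1.29 (SE 0.181, edgeR adjusted p 5.06e-05). CD34 had 0 counts in all 4 libraries labelled MOLM13 and also in the AAVS1 KO library labelled OCI-AML4. Its group means were at most 0.849 CPM, near the floor, so these zeros do not set the labels apart.

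**Figure D4:**
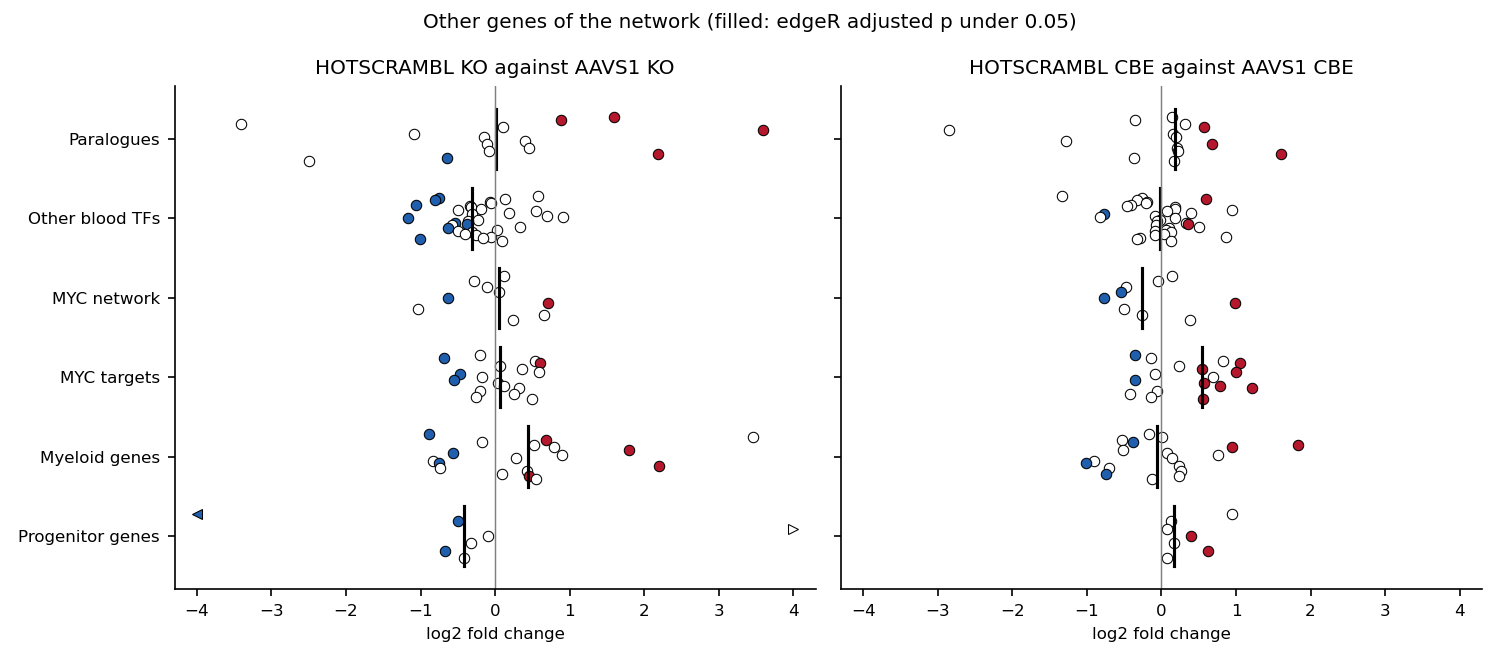
log2 fold change of each tested gene of 6 lists with knockout (left) and base editing (right); red and blue points passed the edgeR adjusted p of 0.05, white points did not, black bars are list medians, and triangles lie beyond the axis. The other blood transcription factors hold 8 blue points and no red one with knockout, and the MYC targets hold 7 red points with base editing.

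The genes whose profile over the 8 libraries was most like that of a member were sought among 9635 genes, by the root-mean-square (RMS) difference of centred log2 CPM. MYC was nearest to RNF168 (0.0615) and GUK1 (0.0880), against a median of 0.558 over all candidates. CEBPA was nearest to COTL1 (0.0779) and FXR2 (0.0849), and IRF8 to IRF1 (0.0646) and VPS35L (0.0857). ID2 had no candidate as close, the nearest being PMAIP1 at 0.178 and MTND2P28 at 0.222. MYB was nearest to SRBD1 and TRAPPC8, SPI1 to LRRK1 and MAP2K2, RUNX1 to CABIN1 and MADD, GFI1 to WHAMMP4 and MRTFA, LMO2 to EPS15L1 and INTS3, and SOX4 to ACBD5 and NR1H2, with RMS differences between 0.0474 and 0.0930. With 8 libraries in 4 groups, a small difference means a shared pattern only where the member itself varied, and it describes these libraries. The RMS of a member's own centred profile was 0.0703 for SPI1, 0.135 for MYB and between 0.251 (SOX4) and 0.849 (ID2) for the others. SPI1 lay at 0.0574 from LRRK1 and 0.0602 from MAP2K2, so its nearness to them shows little variation and no shared pattern.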

How the data were processed

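RNA from 8 ChIRP pull-downs (4 groups, 2 libraries each) was analysed. The deposited values are raw counts per gene, made with featureCounts 2.0.6 on GRCh38 and the Ensembl 112 annotation per the file headers, and the authors did not normalise them. Strand was not used in counting, per the file headers, so antisense reads were not separated, reads at several positions or over several genes were not counted, and both reads of a pair were counted. The aligner's version is not given in the sources used here. The records of 2 genes broken over lines were rejoined.

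Groups came from the sample titles. Genes were tested with edgeR 4.0.16 (R 4.3.3): TMM scaling, filterByExpr with a minimum count of 10 (24057 genes), robust quasi-likelihood F-tests on all 8 libraries with terms for group and line label (3 residual degrees of freedom), and Benjamini-Hochberg adjustment over all tested genes with a threshold of 0.05. The SE is the log2 fold change divided by the square root of F. Levels are CPM after TMM scaling, and per kb of the table's exon length between genes. On simulated data for the knockout comparison (22552 genes) the fit called 34 of 100 genes changed by 1 on the log2 scale and 65 of 100 changed by 2, with 5 false calls. The changed genes were drawn from all with a mean count over 100, with a spread set by the trend on level and no effect of line label. These shares therefore do not say how often a change in a member would be called. MYB passed in the data at −0.28 (SE 0.0856). A gene that did not pass may still have changed.

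Replicate 1 is labelled MOLM13 and replicate 2 OCI-AML4 in every group, so the number pairs samples by line label, and the line label is the replicate block. Deviations of same-numbered libraries correlated across genes with r from 0.0154 to 0.0411, and from 0.0424 to 0.123 among genes above the median level. Nothing says that libraries came from separate cultures, so p-values measure only the spread between these libraries.

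The members and gene lists were chosen with earlier results of these data known. Named genes are the 10 members, at most 4 called genes per list, direction and comparison with the smallest p, the 2 genes nearest in profile to each member among those with a mean of at least 10 CPM (pseudocount 0.5), PPP1R12C and the markers; further called genes named in the text were chosen after their values were seen. Alternatives were other scalings, no filter, DESeq2 1.42.0, limma-voom (limma 3.58.1), no replicate block, 4 libraries, counts divided by 2, leaving out each library and, chosen after seeing the data, edgeR's legacy estimation.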

Additional observations from a re-analysis of the deposited data

Results flagged for a closer look

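For 4 of the 10 genes the effect of targeting HOTSCRAMBL differed between the editors by the test of the difference itself, where 3.19% of all genes passed. The effect with knockout minus that with base editing was 1.87 on the log2 scale for ID2 (SE 0.423, edgeR adjusted p 0.0101), and 0.64 for IRF8 (SE 0.134, edgeR adjusted p 0.0050), both higher towards knockout. It was −0.57 for GFI1 (SE 0.157, edgeR adjusted p 0.044) and −0.75 for SOX4 (SE 0.212, edgeR adjusted p 0.0485), both lower towards knockout. ID2, IRF8 and GFI1 passed with knockout and did not pass with base editing, whereas SOX4 passed with neither editor alone. These calls are fragile: with any 1 library left out, 0 or 1 of the 10 genes passed, and the fit without the replicate block ended the calls of GFI1 and SOX4. Groups of 2 libraries are too small for a test of single outlying libraries.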

How the results depend on the processing

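Calls rest on 2 libraries per group and on TMM scaling. MYC kept its calls with both editors, and CEBPA, GFI1, IRF8 and ID2 kept theirs with knockout, under all 18 alternatives. Over 1200 recomputed values of the 10 genes in 7 comparisons, 1075 kept direction and call, 64 lost the call, 14 gained one and 47 changed sign; no value called in the main analysis changed sign. The cause of these changes was not tested. Without the replicate block, that is without pairing the libraries by line label, the number of genes called was 1736 with knockout, 1641 with base editing and 503 for the difference between editors, and it ended the calls of MYB with knockout and of GFI1 and SOX4 for the difference; for the members it changed no other call. A block could not be left out of the comparisons between line labels.

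The number of genes called was 2108 with knockout, 2124 with base editing, 2958 for their average, 767 for their difference, 0 between controls, 119 between line labels and 0 for the effect by line label. DESeq2 gave 4150, 3351, 4863, 2205, 35, 715 and 68. A fit of 4 libraries gave 780 with knockout and 677 with base editing. limma-voom gave 1 between controls and 250 between line labels, and edgeR's legacy estimation 193 between line labels and 2 for the effect by line label. Leaving out 1 library gave 677 to 1674, 586 to 1885, 1639 to 2182, 226 to 372 and, between line labels, 26 to 65. Without TMM the median of all genes moved by −0.16 with knockout and −0.13 with base editing, and 840 of 2535 and 782 of 2398 calls were higher, where 1085 of 2108 and 1096 of 2124 were with TMM.

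The values whose sign changed had not passed the test. When each library was left out in turn, the values ran as follows. In base editing the ranges were MYB −0.11 to 0.0068, SPI1 −0.063 to 0.14, RUNX1 −0.26 to 0.054, IRF8 −0.096 to 0.0499. In the average of the editors the ranges were SPI1 −0.079 to 0.021, SOX4 −0.11 to 0.037. In the difference between editors the range was MYC −0.16 to 0.10. In the controls the ranges were MYC −0.13 to 0.13, MYB −0.10 to 0.018, CEBPA −0.063 to 0.10, RUNX1 −0.041 to 0.19, GFI1 −0.12 to 0.10, IRF8 −0.14 to 0.026, LMO2 −0.0496 to 0.0025, ID2 −0.15 to 0.45, SOX4 −0.037 to 0.26. In the line labels the ranges were CEBPA −0.046 to 0.074, SPI1 −0.054 to 0.032, GFI1 −0.035 to 0.048. In the effect by line label the ranges were MYB −0.096 to 0.072, SPI1 −0.17 to 0.083, LMO2 −0.19 to 0.11, SOX4 −0.27 to 0.069. Without TMM, SPI1 was −0.10 in base editing, and for the effect by line label MYB was 0.022 and LMO2 0.0090. CEBPA between line labels was 0.0018 with DESeq2 and 0.0032 with edgeR's legacy estimation.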

Other observations

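PVT1, the long non-coding RNA gene next to MYC, did not follow MYC. The AAVS1 KO mean was 706 ± 28.5 CPM (SD, n = 2) and the HOTSCRAMBL KO mean 805 ± 39.3, a difference that did not pass. The mean of AAVS1 CBE was 737 ± 61.1 and that of HOTSCRAMBL CBE 562 ± 13.8, where PVT1 fell by 0.39 on the log2 scale (SE 0.0913, edgeR adjusted p 0.00543) while MYC rose by 0.90. The base editing call was lost in 4 of 18 alternatives. PVT1 was on a list of 6 nuclear-retained RNAs, of which 0 rose and 3 fell with base editing (4.56% and 4.27% of all genes). With knockout 1 of the 6 rose, MALAT1 (0.81, edgeR adjusted p 2.46e-07), and 1 fell, NEAT1 (−0.32, edgeR adjusted p 0.00856), where 4.51% and 4.25% of all genes did. The NEAT1 call was lost in 6 of 18 alternatives. The difference between editors passed for MALAT1, PVT1 and KCNQ1OT1, all 3 higher towards knockout, as were 1.74% of all genes, and was lost in 6, 7 and 10 of 17 alternatives.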
